A study of Mus musculus with 10 samples.

Results

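Superoxide is removed by superoxide dismutases, and the peroxide that they form is removed by catalase, glutathione peroxidases and the thioredoxin-dependent peroxiredoxins. 10 genes of this route were taken by name from 54532 genes counted in the mouse cochlea: Sod1, Sod2, Sod3, Cat, Gpx1, Gpx2, Gpx3, Gpx4, Prdx3 and Txnrd2. The names were chosen for what the enzymes do, with earlier results of these data known, and all 10 genes were among the 18329 that passed the filter on low counts.

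The study asked what nicotinamide riboside (NR), a precursor of the redox cofactor NAD+, does in the ageing cochlea. 5 NR-treated mice, which drank water with 7 mg/ml (24 mM) NR from 2 months of age for 10 months, were compared with 5 non-treated mice (labelled Vehicle) that drank regular water. All 10 mice were 12 months old and carried mtKeima, a pH-dependent fluorescent reporter of mitophagy (mitochondria taken into lysosomes), on a mixed background. Per the methods of the study they were wild type for Cdh23 and Nnt. The whole cochlea was used for RNA-seq of polyadenylated RNA, with 1 library for each mouse and between 17060379 and 24419230 counted reads in each. The labels give all mice as female, whereas the methods of the study describe males. In every library Xist, which is transcribed from the inactive X chromosome, had between 2 and 8 reads and 4 Y-linked genes together had between 3158 and 4754 reads, so the 10 libraries go against the label, in both groups alike. The inner ear identity was clear from Coch, the main secreted protein of the cochlear fibrocytes, which was the most abundant of 18 cochlear markers at 933 CPM per kilobase (CPM are counts scaled to library size), and none of the 18 was at 0.

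Superoxide arises mainly where electrons leak from the mitochondrial respiratory chain and where NADPH oxidases make it on purpose. The 3 superoxide dismutases sit in different places, SOD1 in the cytosol, SOD2 in the mitochondrial matrix and SOD3 outside the cell. Hydrogen peroxide is then split by catalase in peroxisomes or reduced with glutathione or thioredoxin, and damage by these oxidants is among the processes studied in age-related hearing loss.

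5 of the 10 enzymes are selenoproteins, in which a UGA codon, elsewhere a stop, is read as selenocysteine at the active site. These codons set the glutathione peroxidases and TXNRD2 apart from the other 5 genes, so the coding sequence around each is shown with the TGA in capitals, as the annotation marks it in GENCODE transcripts on GRCm38.
Gpx1: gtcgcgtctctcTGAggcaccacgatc
Gpx2: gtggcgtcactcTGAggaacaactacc
Gpx3: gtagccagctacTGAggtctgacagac
Gpx4: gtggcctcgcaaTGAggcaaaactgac
Txnrd2: gtgactggttgcTGAggctaa

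In these sequences the codon is followed by GG in all 5. It was codon 47 of 201 in Gpx1 (chr9:108339451-108339453, plus strand), 40 of 190 in Gpx2 (chr12:76795256-76795258, minus strand) and 73 of 226 in Gpx3 (chr11:54907256-54907258, plus strand). In Gpx4 it was codon 129 of 253 of the longest coding transcript (chr10:80054737-80054739, plus strand). In Txnrd2 it stood at 526 of 527, next to the end of the protein (chr16:18477772-18477774, plus strand), and the sequence shown ends with the stop codon taa.

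Across the 10 mice Gpx1, Gpx3 and Gpx4 were the most abundant of these messages per length of annotated exons. Gpx1 had 402 ± 117 CPM per kilobase (SD, n = 10), Gpx3 343 ± 36.2 and Gpx4 252 ± 11.8, and Gpx4 was 3.45 times as high as the next gene, Sod1, at 73.1 ± 1.87. Prdx3 (59.2 ± 4.91), Cat (42.2 ± 3.25), Gpx2 (25.5 ± 10.1) and Sod2 (14.4 ± 0.908) came next, and Sod3 (11.6 ± 2.72) and Txnrd2 (7.24 ± 1.75) were lowest.

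In this order, Gpx1 was above Gpx3 in 6 of 10 mice, with overlapping ranges, so these neighbours could not be ranked. Cat was above Gpx2 in 9 of 10 mice and Sod2 above Sod3 in 9 of 10, and Sod3 above Txnrd2 in 10 of 10, all with overlapping ranges. All other neighbours kept their order in 10 of 10 mice with ranges that did not touch. The places of Sod1 and Gpx2 depended on the length used. The annotated exons of Sod1 sum to 3970 bases and its longest basic coding transcript has 641, and per length of such transcripts, a choice made after seeing the data, Sod1 stood second at 453 CPM per kilobase, between Gpx1 (541) and Gpx4 (437), ahead of Gpx3 (390), with overlapping ranges between these neighbours. Gpx2 had a mean of 77.1 on that scale, above the means of Prdx3 (59.2) and Cat (42.2), so its mean place against Cat was reversed. It was above Prdx3 in 6 of 10 mice, with overlapping ranges, so these 2 could not be ranked.

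**Figure D1:**
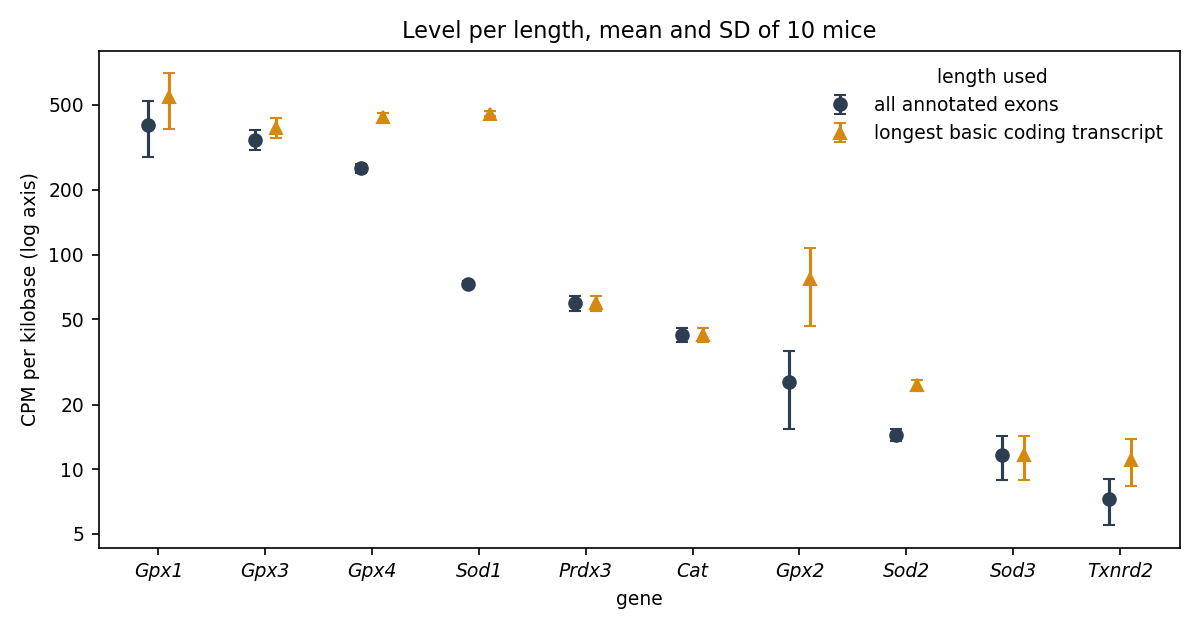
Level of each gene as CPM per kilobase on a log axis, as mean and SD of 10 mice. Circles use the length of all annotated exons and triangles the longest basic coding transcript. Gpx1, Gpx3 and Gpx4 are near the top with either length, while Sod1 moves from 73.1 to 453.

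None of the 10 messages passed the test between NR-treated and non-treated cochleae. At an unadjusted p of 0.05, 9.71% of the 18329 tested genes differed between the groups (4.83% higher and 4.88% lower with NR), and 0 of the 10 did. At an adjusted p of 0.05 by edgeR's quasi-likelihood test with Benjamini-Hochberg adjustment the counts were 0 of 18329 genes and 0 of 10, while DESeq2 called 105 of the genes it tested and again none of the 10. The groups did not overlap in 1.65% of all tested genes (0.769% with every NR-treated mouse above and 0.878% with every one below) and in 0 of the 10. 4 of the 10 (Sod1, Sod3, Gpx3 and Gpx4) had a log2 fold change above 0, beside 47.1% of all tested genes, and the median size of the log2 fold change was 0.04 for the 10 and 0.11 for all tested genes. The p-values and SE rest on the spread between these mice. In this test the spread of each gene is drawn toward that of the other tested genes. For a gene as steady as Sod1 they are thus not set by its own spread alone. In bulk RNA, fewer cells of a type and less RNA per cell cannot be told apart.

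Sod1, the cytosolic copper-zinc dismutase (ENSMUSG00000022982, chr16:90220754-90226329, plus strand), was the steadiest of the 10. The NR-treated mice had 293, 297, 297, 294 and 293 CPM and the non-treated mice 278, 284, 284, 282 and 298. 4 of 5 non-treated mice were below every NR-treated mouse, and Vehicle 5 was above them all. The difference was a log2 fold change of 0.05 (SE 0.04), or 1.03-fold with a 95% interval of 0.969 to 1.10 and an adjusted p of 0.723 by edgeR. The within-group SD of log2 CPM was 0.03 for Sod1, and only 12 of 18329 tested genes varied less, with 0.19 as the median over all tested genes.

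Sod2, the manganese dismutase of the mitochondrial matrix (ENSMUSG00000006818, chr17:13006846-13040063, plus strand), had 129, 156, 142, 144 and 141 CPM with NR and 132, 152, 143, 151 and 153 without. The NR-treated range enclosed the non-treated one. The fold was 0.973 (95% interval 0.887 to 1.07, adjusted p = 0.844 by edgeR).

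Sod3, the dismutase of the extracellular matrix (ENSMUSG00000072941, chr5:52363791-52371418, plus strand), had 68.8, 43.7, 35.4, 34.6 and 50.5 CPM with NR and 42.2, 34.9, 43.7, 40.1 and 41.2 without. NR 1 stood highest, 3 of 5 NR-treated mice were above every non-treated mouse and 1 was below them all. The log2 fold change of 0.20 (SE 0.17) had an adjusted p of 0.707 by edgeR, and it was 0.03 without NR 1.

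Cat, the catalase of peroxisomes (ENSMUSG00000027187, chr2:103453849-103485160, minus strand), had 106, 110, 111, 97.7 and 118 CPM with NR. The non-treated mice had 129, 102, 108, 109 and 111. The highest value was that of Vehicle 1, the lowest that of NR 4, and the remaining mice of both groups lay between 102 and 118. The mean was 109 ± 7.50 CPM with NR and 112 ± 10.0 without (SD, n = 5 each). The fold was 0.972 (95% interval 0.874 to 1.08, log2 fold change -0.04, SE 0.07, adjusted p = 0.859 by edgeR), and 24.6% of the tested genes varied less within the groups.

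Gpx1, the glutathione peroxidase of the cytosol and mitochondria (ENSMUSG00000063856, chr9:108338903-108340343, plus strand), had 574, 515, 475, 505 and 699 CPM with NR and 962, 597, 480, 336 and 656 without. The non-treated mice held both the highest value, in Vehicle 1, and the lowest, in Vehicle 4, 2.87 times apart, and all NR-treated mice lay between them. The log2 fold change was -0.13 (SE 0.23, fold 0.913, 95% interval 0.640 to 1.30, adjusted p = 0.867 by edgeR). Without Vehicle 1 it was 0.10, and without Vehicle 4 it was -0.28.

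Gpx2, a glutathione peroxidase best known from epithelia such as that of the gut (ENSMUSG00000042808, chr12:76792333-76795554, minus strand), varied most. It had 51.9, 91.7, 59.6, 95.8 and 56.4 CPM with NR and 51.0, 73.1, 119, 151 and 73.4 without. Vehicle 3 and Vehicle 4 were above every NR-treated mouse, while Vehicle 1 was below them all. The fold of 0.761 was the farthest from 1 among the 10 genes (log2 fold change -0.39, SE 0.29, 95% interval of the fold 0.490 to 1.18, adjusted p = 0.672 by edgeR). 87.0% of the tested genes had a smaller log2 fold change in size, and 87.2% varied less within the groups. Without Vehicle 4 the log2 fold change of Gpx2 was -0.15, and without both Vehicle 3 and Vehicle 4 it was 0.12.

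Gpx3, the secreted glutathione peroxidase (ENSMUSG00000018339, chr11:54902453-54910377, plus strand), had 723, 602, 544, 685 and 589 CPM with NR and 525, 578, 673, 678 and 615 without, a fold of 1.02 (95% interval 0.881 to 1.19, adjusted p = 0.922 by edgeR). The 2 highest values were those of NR 1 and NR 4 and the lowest that of Vehicle 1. Gpx4, which reduces lipid peroxides in membranes (ENSMUSG00000075706, chr10:80047166-80056439, plus strand), had 412, 451, 447, 472 and 404 CPM with NR and 415, 434, 431, 439 and 437 without. The NR-treated mice spread on both sides of the non-treated ones, and the fold was 1.01 (95% interval 0.927 to 1.11, adjusted p = 0.926 by edgeR).

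Prdx3, the peroxiredoxin of mitochondria (ENSMUSG00000024997, chr19:60864051-60874556, minus strand), had 82.5, 88.4, 85.3, 88.9 and 88.7 CPM with NR and 99.8, 90.9, 77.5, 77.2 and 95.9 without. All 5 NR-treated mice lay inside the gap between 3 higher and 2 lower non-treated mice. The fold was 0.983 (95% interval 0.876 to 1.10, adjusted p = 0.928 by edgeR).

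Txnrd2, the mitochondrial thioredoxin reductase that keeps the partner of PRDX3 reduced (ENSMUSG00000075704, chr16:18426384-18479073, plus strand), had 29.0, 31.3, 27.0, 25.7 and 35.2 CPM with NR. The non-treated mice had 49.2, 32.9, 28.4, 21.7 and 38.0, again with Vehicle 1 highest and Vehicle 4 lowest. The log2 fold change was -0.20 (SE 0.19, adjusted p = 0.738 by edgeR), -0.03 without Vehicle 1 and -0.32 without Vehicle 4.

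**Figure D2:**
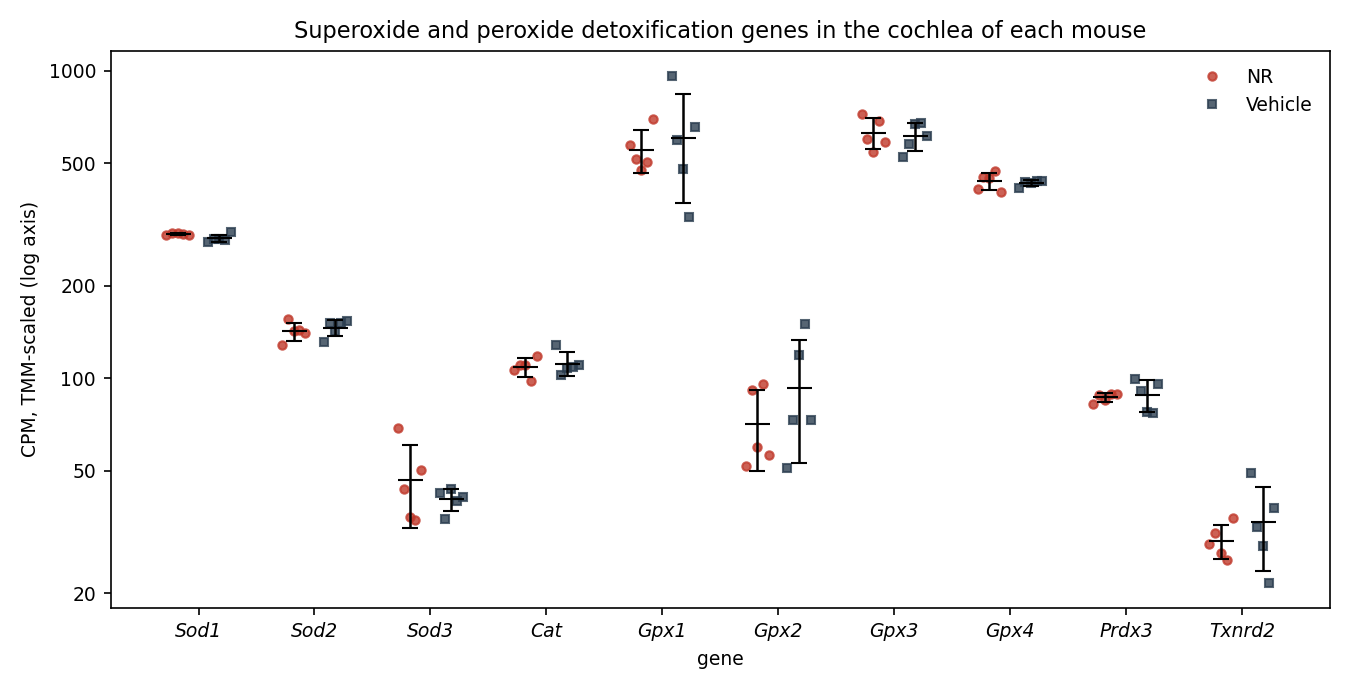
CPM of each of the 10 genes in each of 5 NR-treated and 5 non-treated mice, with the mean and SD of each group. The groups overlap for all 10 genes. Vehicle 1 and Vehicle 4 are the extremes of Gpx1 and Txnrd2.

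Where the spread was small, the intervals bound the change tightly. For Sod1, Sod2, Cat, Gpx4 and Prdx3 all 5 intervals lay between 0.874-fold and 1.11-fold. For Gpx2 the interval ran from 0.490-fold to 1.18-fold, so neither no change nor a loss down to 0.490-fold was excluded with 5 mice a group. The lowest count of Gpx2 in a library was 974 reads, with a counting error of 3.20%, and the lowest of any of the 10 genes was 492 reads (Txnrd2), with 4.51%. For Sod1, at 5065 reads or more, it was up to 1.41%.

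**Figure D3:**
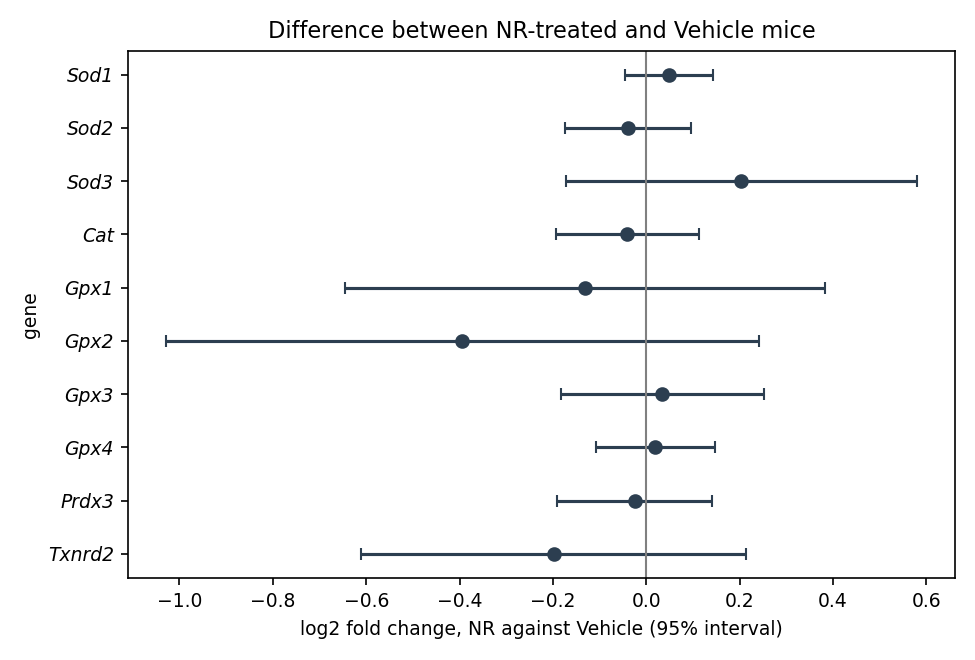
Log2 fold change of NR-treated against non-treated mice with its 95% interval for the 10 genes, n = 5 each. All intervals cross 0. The narrowest is that of Sod1 at 0.05 and the widest that of Gpx2 at -0.39.

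The levels of Gpx1, Prdx3 and Txnrd2 were high in Vehicle 1 and low in Vehicle 4, and so were markers of red cells, which the cochlea with its bone and blood can hold. The summed level of 10 erythroid markers, led by the haemoglobin gene Hbb-bs, ran from 7509 to 13247 CPM with NR and from 4220 to 18259 CPM without, highest in Vehicle 1 and lowest in Vehicle 4, with none of the 10 at 0. All 10 had a log2 fold change below 0 (median -0.37), and 0 of 10 passed an unadjusted p of 0.05, beside 4.88% of all tested genes that were lower at that p.

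The relations of the 10 genes to these sums were tested across mice. They were chosen after seeing the data and were computed for 10 genes and 5 marker lists, 50 in all, as permutation tests on log2 values in 10 mice. For Gpx1, Pearson's r was 0.920 (permutation p = 0.00078, adjusted 0.013) and Spearman's rho 0.855 (permutation p = 0.00295, adjusted 0.063). For Txnrd2, r was 0.910 (permutation p = 0.0007, adjusted 0.013) and rho 0.842 (permutation p = 0.00378, adjusted 0.063). For Prdx3, r was 0.880 (permutation p = 0.00059, adjusted 0.013) and rho 0.879 (permutation p = 0.0017, adjusted 0.063). So 0 of the 50 relations passed an adjusted p of 0.05 by both measures.

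Without Vehicle 1 and Vehicle 4, the mice farthest from the median of the erythroid sum, r was 0.708 for Gpx1, 0.766 for Txnrd2 and 0.764 for Prdx3. With the group means removed it was 0.924, 0.941 and 0.883. Among the NR-treated mice alone r was 0.584, 0.784 and 0.795, lower than the 0.981, 0.968 and 0.903 among the non-treated mice. For Cat, which red cells also contain, r was 0.484 (permutation p = 0.152, adjusted 0.753) and rho 0.515 (permutation p = 0.133, adjusted 0.83). Gpx3 and Gpx2 had negative relations to the same sum, with r of -0.671 (permutation p = 0.0305, adjusted 0.305) and rho of -0.709 (permutation p = 0.0279, adjusted 0.349) for Gpx3, and r of -0.656 (permutation p = 0.0382, adjusted 0.318) and rho of -0.539 (permutation p = 0.115, adjusted 0.83) for Gpx2. Without Vehicle 1 and Vehicle 4 these r were -0.514 and -0.103. The part of these cells in the levels of Gpx1, Txnrd2 and Prdx3 was not tested.

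Gpx2 was highest in the mice with the highest cochlear markers. Of the 18 cochlear markers, 9 were lower at an unadjusted p of 0.05 and 0 higher, beside 4.88% and 4.83% of all tested genes. 17 of the 18 had a log2 fold change below 0 (median -0.52), and none passed an adjusted p of 0.05 by edgeR. Their sum was 4303 to 6527 CPM with NR and 4740 to 8697 CPM without, and Vehicle 3 and Vehicle 4, the mice with the highest Gpx2, also had the highest sums. Across the 10 mice r was 0.804 (permutation p = 0.00505, adjusted 0.0631) and rho 0.673 (permutation p = 0.0394, adjusted 0.394), and without Vehicle 3 and Vehicle 4 r was 0.451. The part of the cochlear markers in the Gpx2 values was not tested.

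**Figure D4:**
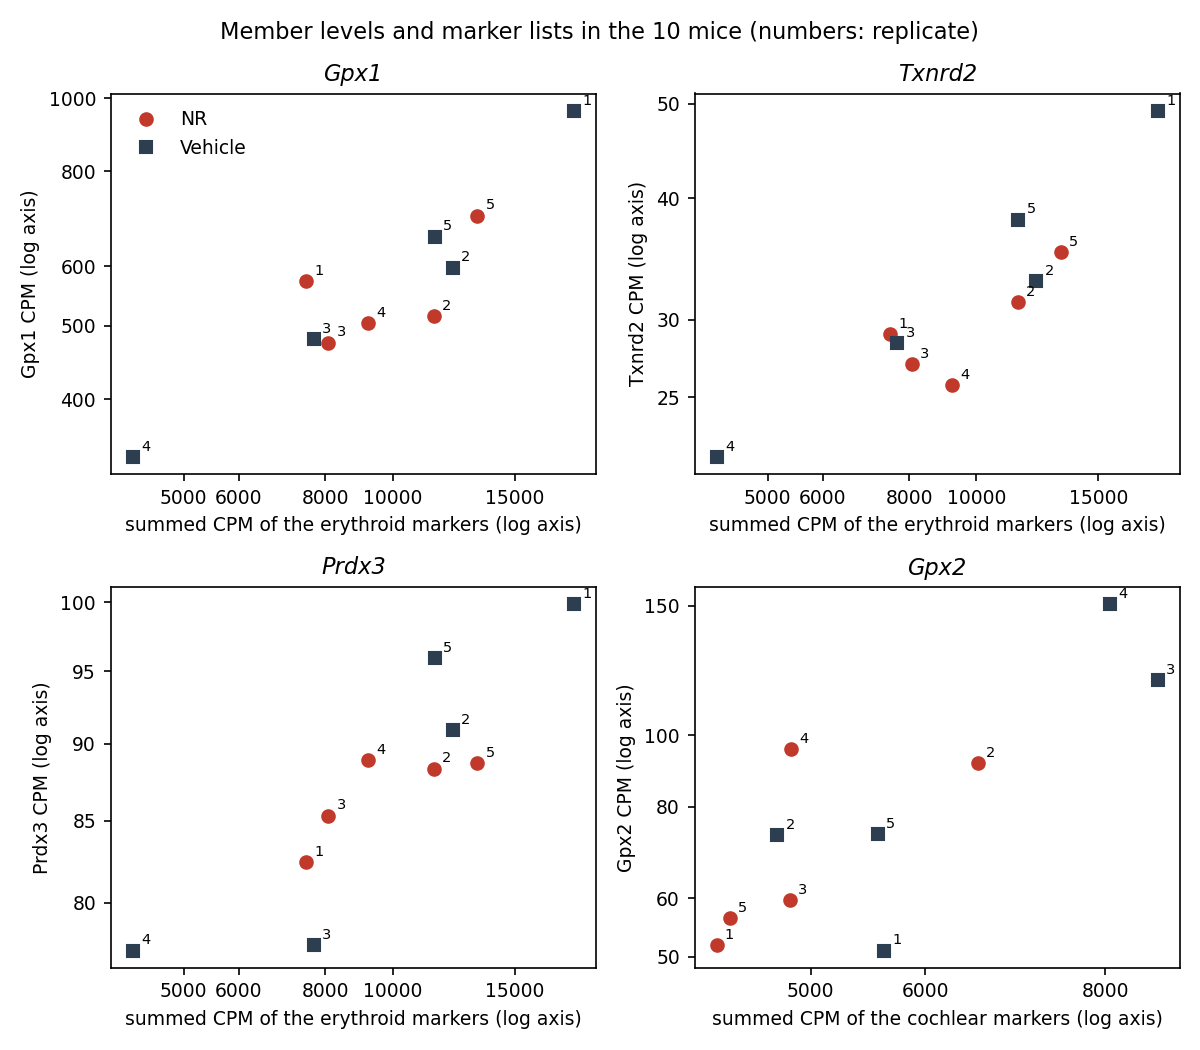
Level of Gpx1, Txnrd2 and Prdx3 against the summed CPM of erythroid markers, and of Gpx2 against that of cochlear markers, in 10 mice on log axes, with replicate numbers. Vehicle 1 and Vehicle 4 are at the ends of the erythroid axis, and Vehicle 3 and Vehicle 4 at the upper end of the cochlear axis.

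The 12 neutrophil and myeloid markers summed to between 1497 and 5072 CPM with NR and between 1516 and 5934 CPM without, and 11 of 12 had a log2 fold change above 0 (median 0.43), with 0 of 12 past an unadjusted p of 0.05. Of the skeletal muscle markers, 8 of 9 tested were higher at an unadjusted p of 0.05, beside 4.83% of all tested genes. The muscle sums were 16.6 to 955 CPM with NR and 15.0 to 84.1 CPM without, highest in NR 3 and NR 5. Of the adipocyte markers, 7 of 9 tested were higher at that p, beside the same 4.83%, and the median log2 fold change was 2.36. The adipocyte sums were 363 to 772 CPM with NR and 337 to 608 CPM without. Most of these sums was Car3, the 1 adipocyte marker with a log2 fold change below 0 (-0.25). Of the markers, Retn was at 0 in Vehicle 4, Lep in Vehicle 2 and Vehicle 3 and Myh2 in NR 1, of which Lep and Myh2 were left out by the filter, Myh2 with 108, 147 and 151 reads in NR 3, NR 4 and NR 5 and 43 in Vehicle 1, and the part of these cells in the results for the 10 genes was not tested. When Vehicle 3 and Vehicle 4 were both left out, an alternative added after seeing the data, 3 of the 10 genes passed an unadjusted p of 0.05, beside 1809 of all genes tested (767 higher and 1042 lower): Gpx1 at -0.41 (log2 fold change, adjusted p = 0.481 by edgeR), Prdx3 at -0.13 (adjusted p = 0.410) and Txnrd2 at -0.43 (adjusted p = 0.357). The genes were filtered anew for this fit and their number was not kept, so 1809 stands without a share. These 2 mice had the lowest non-treated values of just these 3 genes, so leaving them out lowers the NR-treated side by construction and is no support for a difference.

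**Figure D5:**
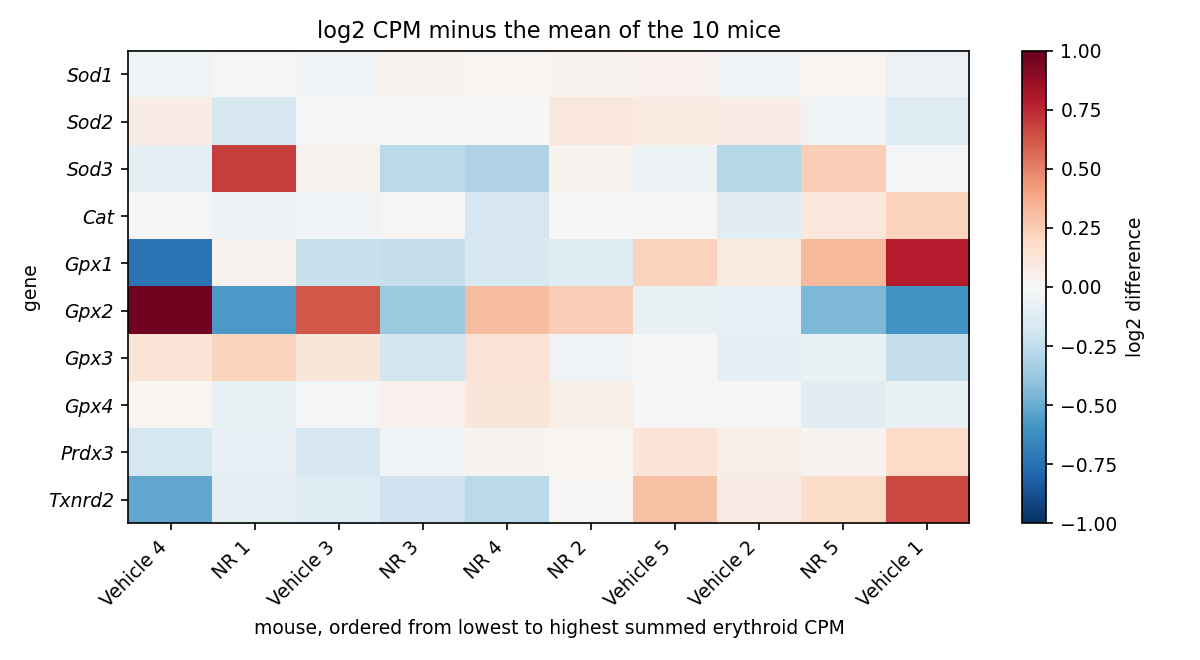
Log2 CPM of each of the 10 genes minus its mean over 10 mice, as colour, with the mice ordered from the lowest to the highest erythroid sum. Gpx1, Prdx3 and Txnrd2 are low in Vehicle 4 at the left end and high in Vehicle 1 at the right end, and Gpx2 is high in Vehicle 3 and Vehicle 4.

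The genes whose levels across the 10 mice were most like those of Gpx1 were Lmo2, a transcription cofactor of blood formation, Ifrd2 and Ptp4a3, with a root mean square difference of centred log2 CPM of 0.09, 0.10 and 0.10, where the SD of Gpx1 itself was 0.40. For Gpx2 they were Gm44618, Sall1 and Padi2 (0.13, 0.14 and 0.15, SD 0.53). For Cat they were Nup93, Dgcr8 and Zbtb44 (0.05, 0.05 and 0.06, SD 0.11), and for Sod1 Gpat4, Puf60 and Rtf2 (0.02, 0.02 and 0.03, SD 0.04).

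RefSeq promoters of GRCm38.p6, from 250 bases before to 50 after the start, were matched for 9 of the 10 genes, with 12 promoters in all. The core of the antioxidant response element, TGACNNNGC on either strand, was in 12.4% of 32851 promoters and, among the 9 genes, in that of Sod1 (chr16:90220512-90220811, plus strand), 56 bases before the start. It is shown in capitals, on the other strand, since it is the only such match.
Sod1: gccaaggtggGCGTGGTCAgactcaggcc
The GATA motif AGATAA, searched on both strands, was in 11.2% of the promoters and in none of those of the 9 genes.

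Of 11 further peroxidases and peroxiredoxins tested, 8 had a log2 fold change above 0 (median 0.08) and 0 passed an unadjusted p of 0.05. The most abundant per length was Prdx2, the cytosolic peroxiredoxin that is plentiful in red cells, at 149 CPM per kilobase, with a log2 fold change of -0.10 (SE 0.14, adjusted p = 0.811 by edgeR).

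Among 16 genes that supply thioredoxin and glutathione, 1 was higher and 1 lower at an unadjusted p of 0.05, beside 9.71% of all tested genes in either direction. Srxn1, the sulfiredoxin that repairs overoxidized peroxiredoxins, was 104 ± 6.87 CPM with NR and 90.8 ± 9.17 without (SD, n = 5 each, log2 fold change 0.19, SE 0.07, adjusted p = 0.476 by edgeR). Slc7a11, the cystine importer that feeds glutathione synthesis, was 60.8 ± 6.55 CPM and 77.2 ± 11.5 (log2 fold change -0.34, SE 0.11, adjusted p = 0.423). In both genes 3 of 5 NR-treated mice lay outside the non-treated range, above it for Srxn1 and below it for Slc7a11. Txn1, the cytosolic thioredoxin and the most abundant of the 16 per length, had a log2 fold change of 0.05 (SE 0.10, adjusted p = 0.895).

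Of 8 genes of selenoprotein synthesis and transport, on which the 5 selenoproteins draw, 1 was lower at an unadjusted p of 0.05, beside 9.71% of all tested genes in either direction. It was Selenop, the secreted selenium carrier and the most abundant of the 8 per length, at 417 ± 16.1 CPM with NR and 465 ± 42.4 without (SD, n = 5 each, log2 fold change -0.16, SE 0.07, adjusted p = 0.505 by edgeR), with 4 of 5 NR-treated mice below every non-treated mouse.

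Among 15 tested genes whose products make superoxide or peroxide, 1 was higher and 1 lower at an unadjusted p of 0.05. This stands beside 9.71% of all tested genes in either direction. These were the monoamine oxidases of the outer mitochondrial membrane, Maoa (higher) and Maob (lower), and neither passed an adjusted p of 0.05. Maoa was 27.2 ± 0.882 CPM with NR and 24.9 ± 0.743 without (SD, n = 5 each, log2 fold change 0.13, SE 0.05, adjusted p = 0.476 by edgeR). For Maoa 5 of 5 NR-treated mice were above every non-treated mouse, which held for 0.769% of all tested genes. Maob was 12.1 ± 1.78 CPM and 16.8 ± 2.34 (log2 fold change -0.47, SE 0.13, adjusted p = 0.408), and 4 of 5 NR-treated mice were below every non-treated mouse. The most abundant of the 15 per length, Cyba, a subunit of the NADPH oxidases, had a log2 fold change of 0.15 (SE 0.17, adjusted p = 0.784). Of 17 peroxisome assembly genes, which build the organelle that holds catalase, 0 passed an unadjusted p of 0.05 (median log2 fold change -0.02), and the most abundant per length, Pex6, had -0.09 (SE 0.06, adjusted p = 0.662). None of the genes of these 5 lists passed an adjusted p of 0.05 by edgeR.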

How the data were processed

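RNA-seq counts of the cochlea from 5 NR-treated and 5 non-treated mice were analysed. The deposited values are raw read counts per gene, 1 file for each mouse, which the authors made with STAR 2.6.1d on mm10 and featureCounts 1.5.0 in its default mode, as the methods and the submitters' processing notes say. The notes also name fastp, CASAVA and DESeq2 1.26.0. By default featureCounts ignores strand and leaves out reads that map to several places. The annotation release is not given in the sources used here, but the coordinates and exon lengths of the 10 genes in the files equal those of GENCODE M21. The counts of Gpx2 and Gpx4 could lose reads to their pseudogenes (Gpx2-ps1 had 0 to 8 reads and Gpx4-ps2 288 to 435).

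Genes were kept with filterByExpr (18329 of 54532) and tested with edgeR 4.0.16 (TMM, glmQLFit and glmQLFTest) in R 4.3.3, with group as the single term. The Benjamini-Hochberg method adjusted p-values over all tested genes. The SE is the size of the log2 fold change divided by the square root of F. CPM values are scaled by TMM, and log2 CPM uses a prior count of 2. Correlations used 100000 permutations in python 3.11.15 with scipy 1.17.1. The scripts were tested on simulated data. The members and lists were chosen with earlier results of these data known. The genes named are the 10 members, every gene of the other antioxidant lists at an unadjusted p of 0.05, the most abundant gene of each list and the defining markers, and the 3 genes most like Cat, Sod1, Gpx1 and the most variable member. Of the marker genes, Ahsp was not matched. The alternatives were DESeq2 1.42.0, limma 3.58.1, other filters and scalings, a replicate block, and leaving out mice. Sequences came from GENCODE M21 and RefSeq. No pair of libraries was alike within sampling noise. An overlap of exons found for 1 of the 10 genes is not reported here.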

Additional observations from a re-analysis of the deposited data

Results flagged for a closer look

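Of 42 groups of 5 values looked at, 3 had a mouse far from the others of its group, where chance gives about 1 in 20. None was a level of the 10 genes. The summed level of the cochlear markers was 6527 CPM in NR 2, above the other NR-treated mice. The summed level of the neutrophil and myeloid markers was 1497 CPM in NR 2, below the others. The summed level of the skeletal muscle markers was 84.1 CPM in Vehicle 1, above the other non-treated mice.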

How the results depend on the processing

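Of 200 fold changes of the 10 genes under 20 alternatives, 188 kept their direction, 12 changed it and 0 came to pass an adjusted p of 0.05. With all 10 mice the 1 reversal was Prdx3 at 0.0014 with library totals as the only scaling. With both Vehicle 3 and Vehicle 4 left out, chosen after seeing the data, Gpx2 was reversed at 0.12. Leaving out 1 mouse at a time gave log2 fold changes of -0.063 to 0.020 for Cat, -0.28 to 0.10 for Gpx1, -0.54 to -0.15 for Gpx2, -0.013 to 0.093 for Gpx3, -0.0011 to 0.056 for Gpx4, -0.065 to 0.028 for Prdx3, 0.04 to 0.06 for Sod1, -0.069 to 0.0030 for Sod2, 0.03 to 0.30 for Sod3 and -0.32 to -0.03 for Txnrd2. The signs changed for Sod2, Gpx3 and Prdx3 without NR 1, for Cat and Gpx4 without NR 4, for Cat, Gpx1, Gpx3 and Prdx3 without Vehicle 1 and for Prdx3 without Vehicle 5. The cause was not tested.

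The number of genes past an adjusted p of 0.05 was 0 by edgeR and limma with all mice, 105 by DESeq2 and 0 to 1 when 1 mouse was left out. At an unadjusted p of 0.05 it was 1780, between 1153 (without NR 3) and 2440 (without NR 2) when 1 mouse was left out, and 843 without both NR 3 and NR 5. With library totals as the only scaling, 1188 were higher and 574 lower, against 886 and 894. Of the 10 genes, 3 passed an unadjusted p without both Vehicle 3 and Vehicle 4, beside 1809 of all genes, for which no share was kept. These mice had the lowest non-treated values of the 3. Mice with the same replicate number were not steadily alike (correlations of same-numbered deviations from -0.22 to 0.17), which cannot exclude a pairing. With a replicate block 1655 genes passed an unadjusted p, with Sod1 at 0.05, Cat at -0.04 and Gpx1 at -0.06.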
